A study of Mus musculus with 9 samples.

Results

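Chemokines and their receptors were described in sorted bone marrow LSK cells of mice with and without Abi1. LSK cells are lineage-negative marrow cells that carry c-Kit and Sca-1, a population that holds blood stem cells and early progenitors. Members were the genes whose symbol begins with Ccl, Cxcl, Xcl, Ccr, Cxcr, Xcr or Ackr followed by a digit and which have a probeset that names no other gene, with the brightest probeset standing for a gene. They numbered 54 of 30142 genes, 35 of them ligands and 19 receptors, and each had a single such probeset.

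RNA was hybridised to Affymetrix arrays, 1 array per mouse, with 4 KO and 5 WT arrays and 5 ng of total RNA in each. The WT mice were Abi1(fl/fl);Tg(Mx1-cre(-)) and the KO mice Abi1(-/-);Tg(Mx1-cre(+)). KO and WT mice alike were given poly(I:C), a double-stranded RNA mimic that elicits interferon, as 3 injections at 8 to 9 weeks of age, and marrow was taken at 12 to 14 weeks. Abi-1, the protein lost in the KO, belongs to the WAVE complex, through which cells start branched actin networks. Several features limit the model. The Mx1 promoter answers to interferon and is not restricted to LSK cells, so Abi1 could be lost in other cells of the marrow too. Only the KO mice carry Cre, so effects of Cre and of Abi1 loss cannot be told apart. Recombination was checked in marrow by PCR, per the labels' protocols.

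Chemokines are small secreted proteins that steer the migration of blood cells through G-protein-coupled receptors, while atypical receptors bind chemokines without that signalling. In the marrow, CXCL12 made by stromal cells holds stem cells that carry CXCR4 in their niche, and ligands of CXCR2 draw neutrophils into the blood. A second set, with CXCL2, CCL2, CCL3 and CXCL10 among them, is made quickly by many cell types when NF-kappaB or interferon pathways are active.

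Promoters are shown for 4 ligands among the 11 members with a match to the kappaB motif, GGGRNNYYCC, which NF-kappaB binds. R stands for A or G, Y for C or T and N for any base. The 4 were picked partly by result, since 3 of them (Cxcl2, Cxcl10 and Cxcl1) are among the genes with the smallest p-values below. Cxcr2, also among those genes, held 0 matches. Of the 54 members, 39 had a promoter in the RefSeq table of build GRCm38.p6, taken from 250 bases before to 50 after the gene start. Ccl11, Ccl19-ps1, Ccl2, Ccl24, Ccl26, Ccl4, Ccl5, Ccl7, Ccr10, Ccr7, Cxcl11, Cxcl16, Cxcl17, Cxcl5 and Cxcr5 had none. The 250 bases before the start are printed 5′ to 3′ on the gene's own strand, with stretches that match the kappaB motif on either strand in capitals. All 4 genes lie on chromosome 5, at chr5:90903649-90903898 (plus strand) for Cxcl2, chr5:90890995-90891244 (plus strand) for Cxcl1, chr5:90785851-90786100 (plus strand) for Cxcl3 and chr5:92348890-92349139 (minus strand) for Cxcl10.
Cxcl2: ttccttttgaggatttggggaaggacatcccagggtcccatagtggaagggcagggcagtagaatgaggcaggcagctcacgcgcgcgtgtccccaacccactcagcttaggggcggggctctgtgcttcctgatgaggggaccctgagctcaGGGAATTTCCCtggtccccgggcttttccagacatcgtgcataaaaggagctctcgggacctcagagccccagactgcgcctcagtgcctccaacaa
Cxcl1: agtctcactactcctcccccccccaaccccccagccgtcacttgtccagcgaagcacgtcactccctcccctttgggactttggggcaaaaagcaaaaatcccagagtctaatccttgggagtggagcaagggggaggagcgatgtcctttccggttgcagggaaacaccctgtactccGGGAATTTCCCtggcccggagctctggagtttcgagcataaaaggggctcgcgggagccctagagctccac
Cxcl3: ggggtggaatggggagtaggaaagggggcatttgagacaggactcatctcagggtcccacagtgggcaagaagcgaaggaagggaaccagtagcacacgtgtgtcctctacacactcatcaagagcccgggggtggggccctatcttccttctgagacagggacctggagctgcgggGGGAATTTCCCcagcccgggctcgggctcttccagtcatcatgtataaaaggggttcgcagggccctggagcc
Cxcl10: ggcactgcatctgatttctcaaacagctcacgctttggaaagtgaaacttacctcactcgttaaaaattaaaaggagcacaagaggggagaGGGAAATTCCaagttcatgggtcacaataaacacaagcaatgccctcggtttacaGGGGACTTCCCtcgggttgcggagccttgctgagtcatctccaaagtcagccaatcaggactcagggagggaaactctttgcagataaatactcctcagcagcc
Cxcl2, Cxcl1 and Cxcl3 each held 1 such stretch, which began 97, 71 and 73 bases before the start and matched on both strands as overlapping matches. Cxcl10 held 2, which began 159 and 104 bases before the start, and the nearer one joined 3 overlapping matches.

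The kappaB motif was found in promoters of 11 of the 39 members (28.2%), namely Ccl1, Ccl20, Ccl27a, Ccl9, Ccr1, Ccr3, Ccr6, Cxcl1, Cxcl10, Cxcl2 and Cxcl3, against 8.46% of all 32851 promoters in the table. The core motif of interferon regulatory factors (IRF), AANNGAAA, was found in 12 members (30.8%), Cxcl10 and Ccl3 among them, against 23.9% of all promoters. The AP-1 motif TGANTCA matched in 8 members (20.5%), Cxcl10, Cxcl9 and Ccl9 among them, against 7.81%. The TATA box TATAAA matched in 12 (30.8%), Cxcl3 and Cxcr4 among them, against 13.6%. AP-1 reads alike on both strands and was counted once. The member shares count genes and the other shares count promoters, of which a gene can have several. All 4 searches covered both strands. A match describes letters in the window and was not tested as a binding site.

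**Figure D1:**
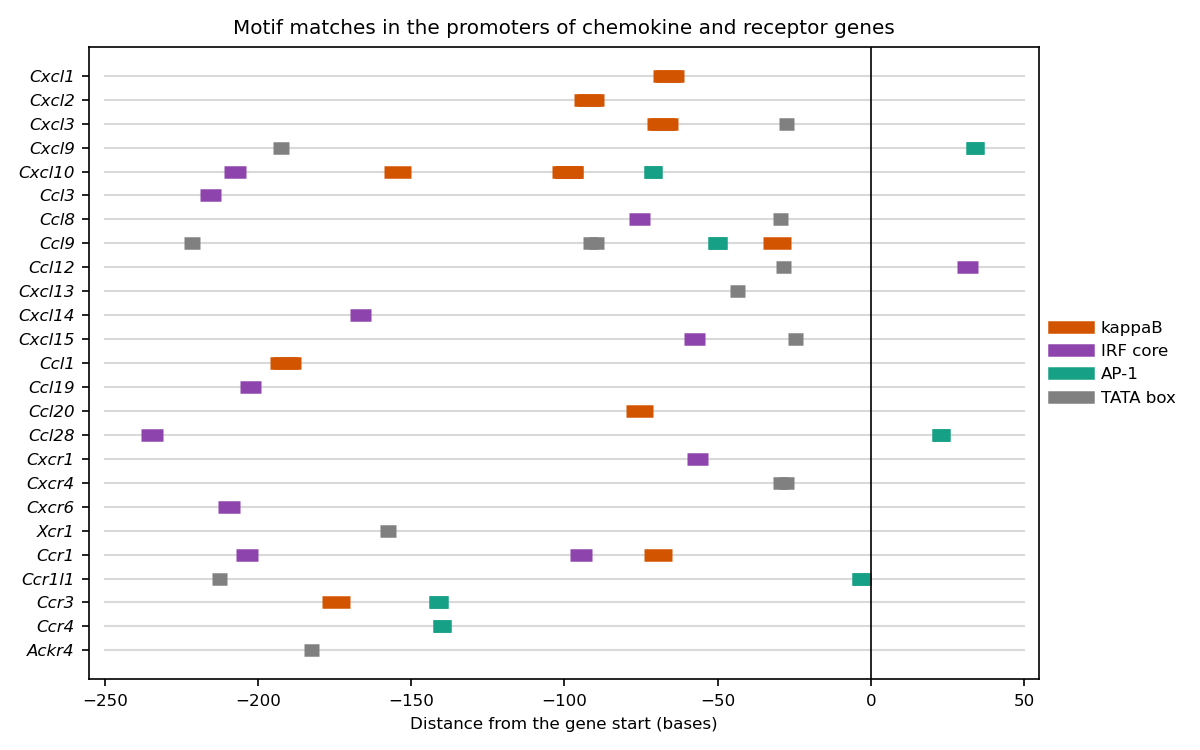
Positions of the 4 motifs in the promoters of 25 members with at least 1 match, in bases from the gene start on the horizontal axis, 1 gene per line, with colour for the motif. The 3 members with several promoters in the table are left out, and the kappaB matches of Cxcl1, Cxcl2 and Cxcl3 lie between 97 and 61 bases before the start.

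Values are deposited probeset signals, read as log2, and differences are KO minus WT on that scale, with the standard error (SE) of the limma fit. Abi1 checked the labels, and its KO arrays (5.59 to 6.11) and WT arrays (11.49 to 11.65) did not overlap. The LSK label was checked against 15 stem and progenitor markers. Of these 12 were measured, and all 12, Kit among them at 13.82 to 14.78, were above background in all 9 arrays, while Ly6a, the gene of Sca-1, was not matched. Of all 30142 genes 14698 were above background in all 9 arrays. With Sca-1 not read, this check cannot tell LSK cells from other marrow cells that carry c-Kit. In KO replicate 1 and WT replicate 5 the median correlation with the other arrays was lowest, at 0.986 and 0.989 against 0.993 to 0.996; values without both are given beside several of the results. In sorted bulk RNA, fewer cells of a type and less RNA per cell cannot be told apart.

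Background was set at percentile 95 of 1717 olfactory and vomeronasal receptor genes, which blood cells hardly express, and lay between 5.29 and 5.64 by array. In at least 1 group 28 of the 54 members had a mean above it (51.9%), against 53.9% of all genes. By role these were 20 of 35 ligands and 8 of 19 receptors. In all 9 arrays together 23 members stayed above it. Background depended on the probesets used. The 23 antigenomic control probesets (percentile 95 at 5.33 to 5.56) left 26 members above, without Cxcl17 and Ccl26. Percentile 99 of the receptor genes (6.05 to 6.41) left 21, without Cxcl16, Cxcl17, Ccl26, Ccl19-ps1, Cxcr1, Cxcr3 and Ccr10. The 5222 control probesets marked neg in their names reach percentile 95 at 10.70 to 12.27, and above that level only Ccl3 and Cxcr4 remained.

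**Figure D2:**
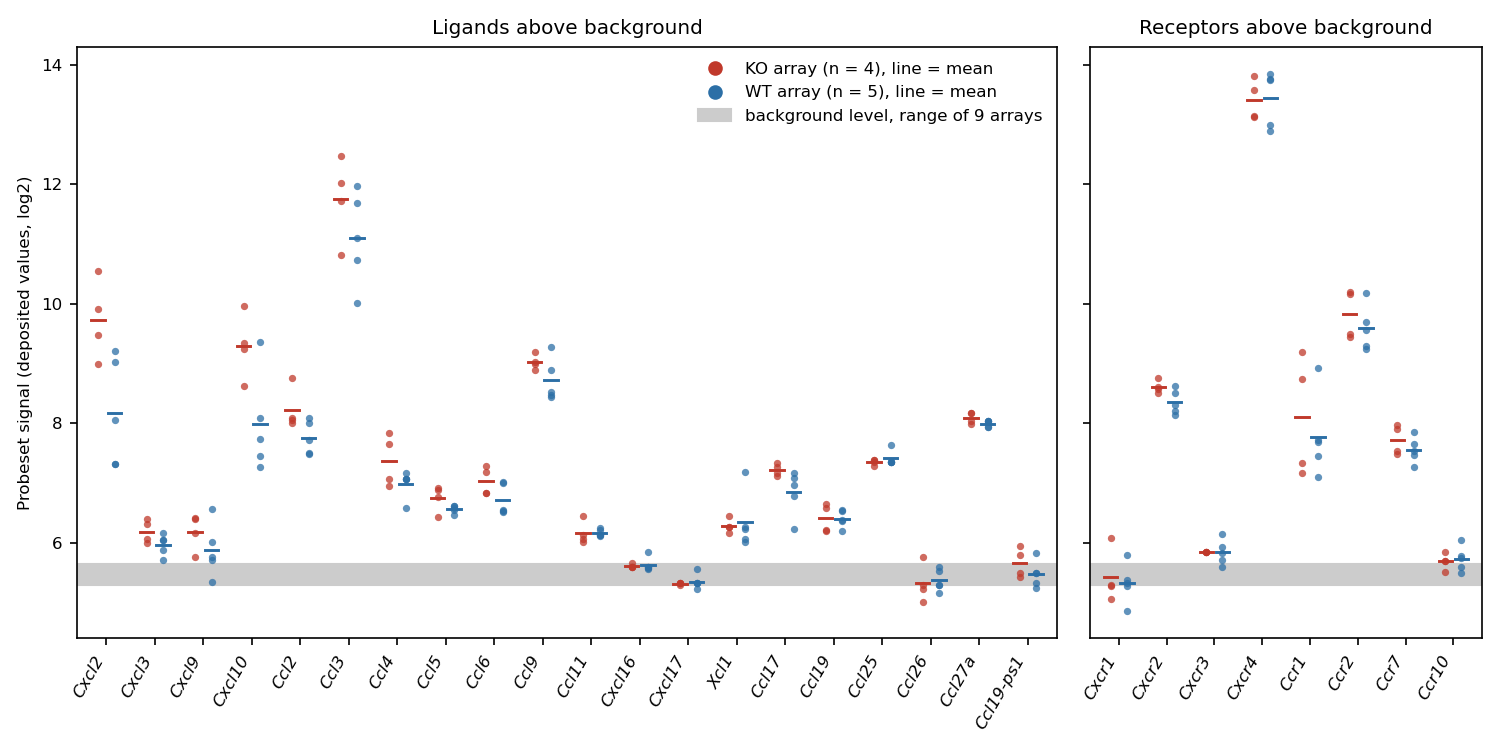
Signal of each array (log2, vertical axis) for the 20 ligands and 8 receptors with a group mean above background, with KO in red, WT in blue, a line at each group mean and the background range of the 9 arrays in grey. The 4 KO and 5 WT arrays overlap for all 28 genes, and Cxcl2, Cxcl10, Ccl3 and Ccr1 have the widest spread.

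No member passed the limma test after Benjamini-Hochberg adjustment over 30142 genes (0 of 54, threshold 0.05), where Abi1 alone made 0.00332% of all genes. At an unadjusted limma p under 0.05 there were 5 members (9.26%), against 5.01% of all genes. All 5 had a higher mean in KO, a direction taken by 3.82% of all genes, and none was lower, against 1.19%. They were the ligands Cxcl2, Cxcl10, Ccl2 and Cxcl1 and the receptor Cxcr2, each at an adjusted p of 0.786. Without KO replicate 1 the number was 2 (Cxcl2 and Cxcl10), and without WT replicate 3 it was 8.

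The mean was higher in KO for 40 of 54 members (74.1%), against 63.9% of all genes. This share moved with the scaling. After quantile normalization 31 members were higher (57.4%, against 53.5% of all genes), and with arrays centred on their medians 28 (51.9%, against 43.9%). Without KO replicate 1 and WT replicate 5 it was 33 (61.1%, against 50.8%). Without KO replicates 1 and 2 it was 27 (50%), below the share of all genes (53.2%). Those 2 KO arrays were chosen after the data were seen. They hold the highest KO values of Cxcl2, Ccl3, Ccl4, Ccl6, Ccr1, Ccr2 and Ccr7. For these genes leaving those arrays out had to lower the difference, so the lower values given below are no separate result. The median difference was 0.08 for ligands and 0.02 for receptors, against 0.03 for all genes. Only for Cxcl1, among the 54, did the KO and WT arrays not overlap, against 0.856% of all genes (0.68% with KO above WT and 0.176% with KO below WT).

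**Figure D3:**
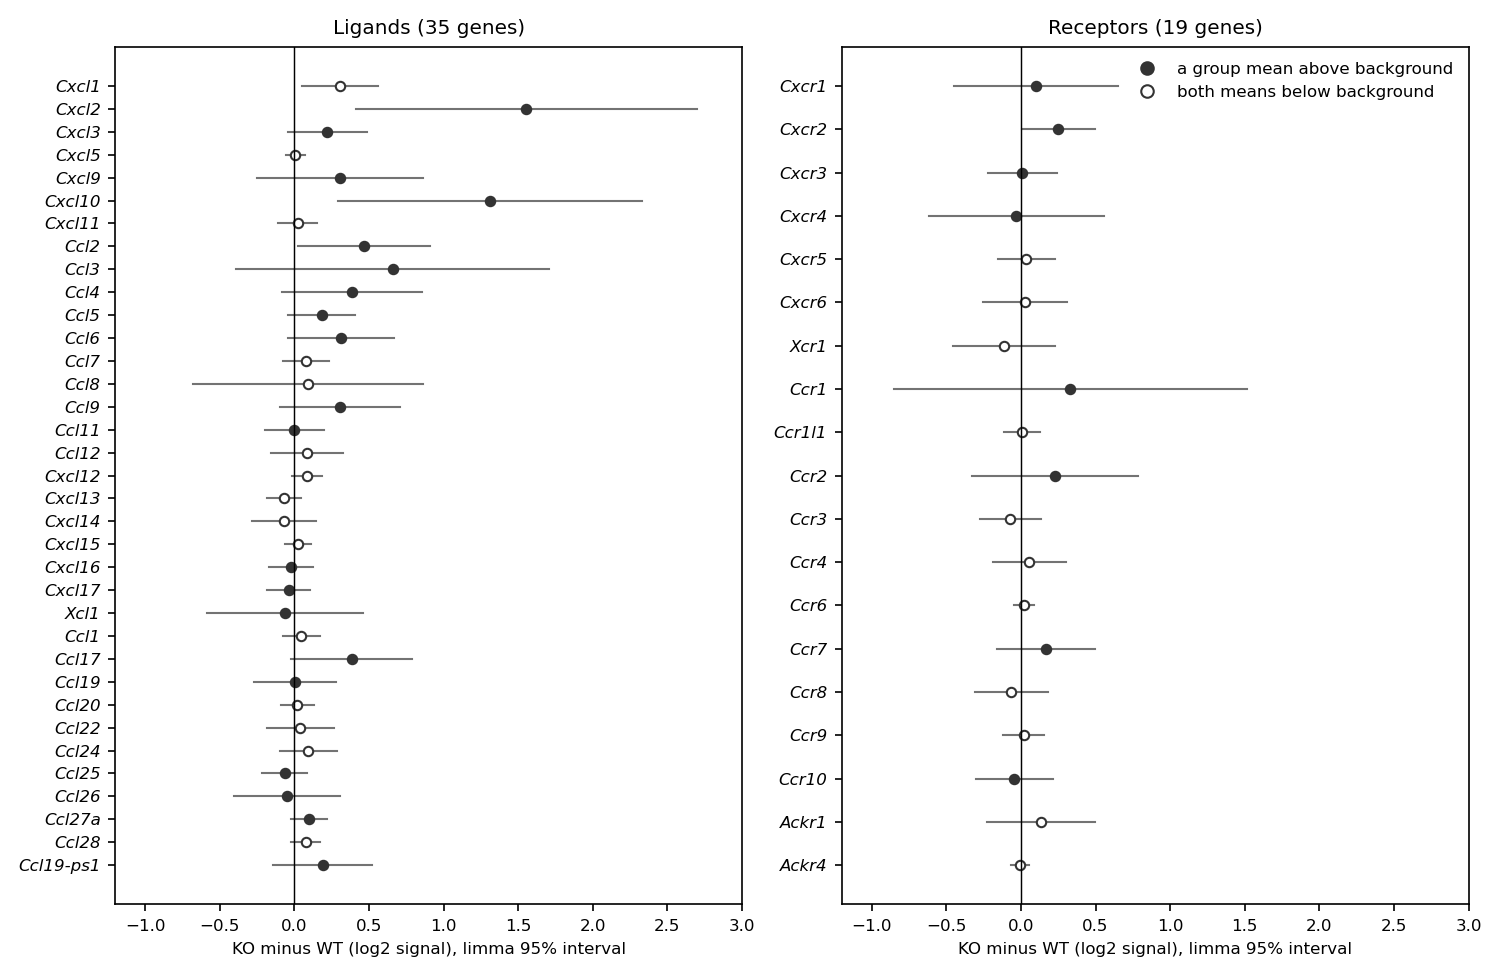
KO minus WT difference (log2, horizontal axis) with its 95% interval from limma for the 35 ligands and the 19 receptors, with open symbols for genes below background in both groups. Only the intervals of Cxcl2, Cxcl10, Ccl2, Cxcl1 and Cxcr2 leave out 0, before any adjustment.

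Among the CXC ligands of the neutrophil receptor Cxcr2, Cxcl2 and Cxcl3 were above background and Cxcl1 and Cxcl5 were not. Cxcl2, which draws neutrophils and is switched on early in inflammation, read 10.55, 9.92, 9.47 and 9.00 in KO replicates 1 to 4. Its WT values, replicates 1 to 5, were 9.21, 7.31, 7.31, 8.05 and 9.02. WT replicates 2, 3 and 4 lay below all KO arrays, and WT replicates 1 and 5 lay inside the KO range. The KO mean was 9.74 ± 0.66 (SD, n = 4) and the WT mean 8.18 ± 0.91 (SD, n = 5), a difference of 1.56 (SE 0.50, 95% interval 0.42 to 2.69) or 2.94-fold. The limma p was 0.0134 and the exact two-sided permutation p 0.0476 (0.858 after adjustment over all genes). The difference was 1.49 without KO replicate 1 and WT replicate 5 (limma p 0.0317), and 1.06 without KO replicates 1 and 2 (limma p 0.151).

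Cxcl1, a close relative of Cxcl2 with the same receptor, read 4.92, 4.53, 4.69 and 4.52 in KO replicates 1 to 4. The WT values were 4.48, 4.41, 4.08, 4.48 and 4.34. All KO arrays lay above all WT arrays, by 0.04 at the closest, but all 9 arrays lay below background, so that no fold is given. The limma p was 0.023, and the exact permutation p of 0.00794 is the smallest that 4 against 5 arrays can give (0.858 after adjustment). Without KO replicate 1 the limma p was 0.0635, and without WT replicate 5 as well it was 0.105. Cxcl3 read 5.99 to 6.39 in KO and 5.71 to 6.17 in WT, with a difference of 0.22 (95% interval -0.05 to 0.48). Cxcl5 read 4.93 in all 4 KO arrays and 4.89 to 4.94 in WT. In the order of members along chromosome 5, Cxcl5, Cxcl3, Cxcl15, Cxcl1 and Cxcl2 follow one another, and Cxcl3 and Cxcl2 were the members of that run above background.

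Of the interferon-induced ligands of Cxcr3, which draw activated T cells, Cxcl10 and Cxcl9 were above background and Cxcl11 was not. Cxcl10 read 8.62, 9.34, 9.97 and 9.25 in KO replicates 1 to 4. The WT values were 9.36, 8.09, 7.45, 7.74 and 7.27. WT replicate 1 lay inside the KO range, and the other WT arrays lay below all KO arrays. The KO mean was 9.30 ± 0.55 (SD, n = 4) and the WT mean 7.98 ± 0.83 (SD, n = 5), a difference of 1.31 (SE 0.44, 95% interval 0.30 to 2.33). The limma p was 0.0175 and the exact permutation p 0.0476 (0.858 after adjustment). The difference was 1.36 without KO replicate 1 and WT replicate 5 (limma p 0.0337), and 1.63 without KO replicates 1 and 2 (limma p 0.0361), where Cxcl10 was the single member under 0.05. It was 1.09 without KO replicate 3 (limma p 0.0532), the smallest difference with 1 array left out. The largest such difference was 1.66, and the limma p of these settings ran from 0.000737 to 0.0532.

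Cxcl9 did not follow Cxcl10 across the arrays. It read 6.41, 6.16, 6.40 and 5.76 in KO replicates 1 to 4 and 5.76, 6.02, 6.56, 5.71 and 5.34 in WT replicates 1 to 5. The highest value was in WT replicate 3, where Cxcl10 was near its lowest. The difference was 0.30 (95% interval -0.25 to 0.86). It was 0.17 without WT replicate 5 and 0.48 without WT replicate 3 (limma p 0.0388), and 0.09 without KO replicate 1 and WT replicate 5 (limma p 0.728). Cxcl11 read 4.51 to 4.81 over all arrays, below background. Cxcl9, Cxcl10 and Cxcl11 lie next to each other among the members on chromosome 5.

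Of the 10 inflammatory CC ligands, 7 were above background and 9 had a higher mean in KO, with 1 at an unadjusted p under 0.05. This was Ccl2, which draws monocytes. It read 8.75, 8.09, 8.01 and 8.06 in KO replicates 1 to 4 and 8.09, 7.49, 7.72, 7.50 and 8.00 in WT replicates 1 to 5. KO replicate 1 stood above the other arrays, WT replicate 1 lay inside the KO range, and WT replicate 5 lay 0.01 below the lowest KO array. The difference was 0.47 (SE 0.19, 95% interval 0.03 to 0.91), with a limma p of 0.0398 and an exact permutation p of 0.0794. Without KO replicate 1 it was 0.29 (limma p 0.102), and without WT replicate 5 as well 0.35 (limma p 0.0641).

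Ccl3, a ligand of Ccr1 that is known to hold back the division of blood progenitors, read 12.47, 12.02, 10.82 and 11.73 in KO replicates 1 to 4. The WT arrays read 11.10, 10.01, 10.74, 11.68 and 11.98. KO replicates 1 and 2 were the highest arrays and WT replicate 2 the lowest, and the groups overlapped widely. The difference was 0.66 (95% interval -0.39 to 1.70) and was 0.17 without KO replicates 1 and 2. Ccl4, the neighbour of Ccl3 on chromosome 11, read 6.95 to 7.83 in KO and 6.59 to 7.16 in WT. KO replicates 1 and 2 and WT replicate 2 were again the extremes. Its difference was 0.39 (95% interval -0.08 to 0.85), 0.23 without KO replicate 1 and 0.02 without KO replicates 1 and 2.

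Ccl6 and Ccl9, ligands of Ccr1 that myeloid cells make in mice, showed different array patterns. Ccl6 read 7.28, 7.18, 6.84 and 6.84 in KO replicates 1 to 4 and 6.51, 6.55, 7.02, 7.00 and 6.53 in WT replicates 1 to 5. It was highest in KO replicates 1 and 2, followed by WT replicates 3 and 4. Ccl9 read 9.02, 8.90, 9.20 and 9.00 in KO and 8.44, 8.47, 8.53, 8.90 and 9.28 in WT. The highest Ccl9 value was in WT replicate 5, and WT replicates 1, 2 and 3 lay below all KO arrays. Both differences were 0.31, with 95% intervals of -0.04 to 0.67 for Ccl6 and -0.10 to 0.71 for Ccl9. Without KO replicate 1 and WT replicate 5 they were 0.18 for Ccl6 (limma p 0.338) and 0.45 for Ccl9 (limma p 0.0169), and without KO replicates 1 and 2 that of Ccl6 was 0.12.

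Ccl5, a T cell and monocyte attractant, read 6.43 to 6.92 in KO and 6.46 to 6.62 in WT. Ccl11, the eosinophil attractant eotaxin, had a mean of 6.17 in both groups, with a 95% interval of the difference of -0.20 to 0.20. Ccl7, Ccl8 and Ccl12 were below background in both groups, at 4.10 to 5.98, and Ccl8 passed it in WT replicate 3 alone.

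Of the 17 homeostatic and tissue ligands, 8 were above background, 10 had a higher mean in KO, and 0 were at an unadjusted limma p under 0.05. Cxcl12, the niche ligand of Cxcr4, was below background in all 9 arrays, at 5.06 to 5.22 in KO and 5.01 to 5.07 in WT. Ccl17, a ligand of Ccr4, read 7.12, 7.34, 7.27 and 7.17 in KO replicates 1 to 4. In WT replicates 1 to 5 it read 6.96, 7.16, 7.08, 6.78 and 6.23. WT replicate 2 lay inside the narrow KO range, the other WT arrays below it, and WT replicate 5 was the lowest. The difference was 0.38 (95% interval -0.02 to 0.79), with a limma p of 0.0624 and an exact permutation p of 0.0476 (0.858 after adjustment). Without WT replicate 5 the difference was smaller, at 0.23, with a limma p of 0.038, and without KO replicate 1 as well it was 0.27 (limma p 0.0374).

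Ccl25, which guides T cell precursors to thymus and gut, read 7.29 to 7.38 in KO, and 7.36 in all WT arrays but WT replicate 4, at 7.64. Xcl1, made by T and NK cells, read 6.16 to 6.45 in KO and 6.01 to 7.18 in WT, with WT replicate 1 above the rest. The levels of Ccl19 (6.19 to 6.65), Ccl27a (7.93 to 8.18) and the pseudogene Ccl19-ps1 (5.25 to 5.95) are uncertain as levels of single genes, since near-identical copies of Ccl19 and Ccl27a sit in the mouse genome. Cxcl16, Cxcl17 and Ccl26 lay near background. Cxcl16 and Cxcl17 held the same value, 5.59 and 5.32, in several arrays of different mice. Cxcl13, Cxcl14, Cxcl15, Ccl1, Ccl20, Ccl22, Ccl24 and Ccl28 were below background in both group means, at 4.39 to 5.38.

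Of the 7 CXC and XC receptors, 4 were above background. Cxcr4, which holds stem cells in the marrow, read 13.13, 13.58, 13.14 and 13.82 in KO replicates 1 to 4. The WT arrays, replicates 1 to 5, read 13.74, 13.00, 13.85, 13.77 and 12.89. High and low arrays were found in both groups. The difference was -0.03, with a 95% interval of -0.62 to 0.55.

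Cxcr2, the receptor of Cxcl1 and Cxcl2, read 8.57, 8.50, 8.61 and 8.75 in KO replicates 1 to 4. In WT replicates 1 to 5 it read 8.14, 8.50, 8.63, 8.31 and 8.20. WT replicates 2 and 3 lay inside the KO range and WT replicates 1, 4 and 5 below it. The difference was 0.25 (SE 0.11, 95% interval 0.01 to 0.50), with a limma p of 0.0459 and an exact permutation p of 0.0952. The limma p was above 0.05 with arrays centred on their medians (0.127) and with quantile normalization (0.0616), as well as without KO replicate 1 and WT replicate 5 (0.137). Cxcr1 read 4.85 to 6.08 and was above background in 3 arrays, KO replicate 3 and WT replicates 1 and 4. Cxcr3, the receptor of Cxcl9 and Cxcl10, held 5.85 in all 4 KO arrays and read 5.60 to 6.14 in WT. Cxcr5, Cxcr6 and Xcr1, receptors best known from lymphocytes and dendritic cells, were below background in all 9 arrays.

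Of the 10 CC receptors, 4 were above background, Ccr1, Ccr2, Ccr7 and Ccr10, and 7 had a higher mean in KO. Ccr1, a receptor of Ccl3 on myeloid cells, read 8.74, 9.20, 7.16 and 7.34 in KO replicates 1 to 4. In WT replicates 1 to 5 it read 7.45, 7.72, 8.93, 7.69 and 7.10. KO replicates 1 and 2 and WT replicate 3 stood well above the other 6 arrays. The difference was 0.33 (95% interval -0.85 to 1.52), and without KO replicates 1 and 2 it was -0.53 (limma p 0.314). The within-group SD of Ccr1 was 0.84, at percentile 98.6 among genes above background.

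Ccr2, the monocyte receptor of Ccl2, read 10.20, 10.16, 9.45 and 9.49 in KO replicates 1 to 4 and 9.29, 9.70, 10.18, 9.24 and 9.57 in WT replicates 1 to 5. Ccr7, the receptor of Ccl19 on dendritic and T cells, read 7.97, 7.90, 7.48 and 7.54 in KO and 7.47, 7.66, 7.85, 7.53 and 7.27 in WT. Both genes were highest in the same 3 arrays as Ccr1. The differences were 0.23 (95% interval -0.32 to 0.78) for Ccr2 and 0.17 (95% interval -0.16 to 0.50) for Ccr7. Without KO replicates 1 and 2, the highest KO arrays for both genes, they fell by construction, to -0.13 and -0.05. Ccr10, a skin-homing receptor, read 5.50 to 6.04, near background. Ccr1l1, Ccr3, Ccr4, Ccr6, Ccr8, Ccr9 and the atypical receptors Ackr1 and Ackr4 had group means below background. Ackr2 and Ackr3 carry older symbols beside the current ones in the annotation and fall outside the naming rule. They read 4.95 to 5.05 and 4.27 to 4.66.

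Of 23 known ligand and receptor pairs, both partners were above background in 10. These include Cxcl2 with Cxcr2, Ccl2 with Ccr2, and Ccl3 with Ccr1, which is also paired with Ccl5 and Ccl9. The 10 also hold pairs of Cxcr3 and Ccr10, which were not above percentile 99 of the receptor genes. They hold Ccl19 and Ccl27a too, whose levels are uncertain as levels of single genes. In 5 pairs only the ligand was above background, such as Ccl17 with Ccr4, and in 4 only the receptor, such as Cxcr4 with Cxcl12. In the other 4 pairs neither was, such as Cxcl13 with Cxcr5.

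**Figure D4:**
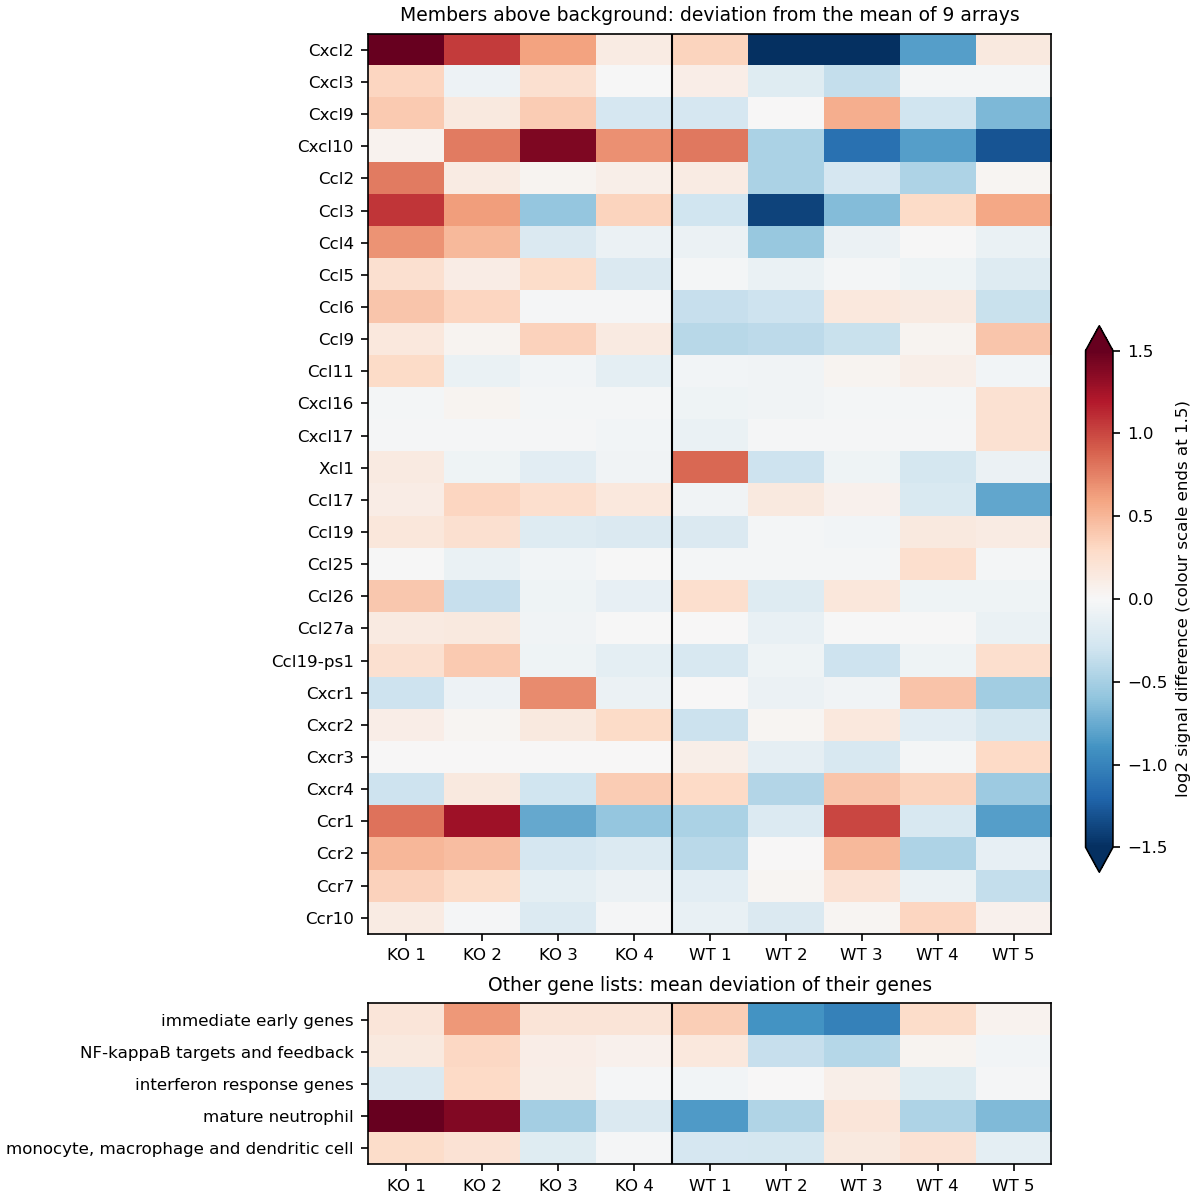
Deviation of each array from the gene's mean over 9 arrays (log2, colour, scale ending at 1.5) for the 28 members above background, and the mean deviation of 5 other gene lists, with KO and WT arrays in columns. Ccr1, Ccr2 and Ccr7 are high in KO replicates 1 and 2 and WT replicate 3, and Cxcl2 is low in WT replicates 2 and 3, where immediate early genes are low too.

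The arrays in which members were high or low also differed in other gene groups. Over all genes, 63.9% had a higher mean in KO, 3.82% were also at an unadjusted p under 0.05, and the median difference was 0.03, against which the list counts below are set. A list of 12 mature neutrophil genes had 11 measured, all 11 with a higher mean in KO (median difference 0.49) and 1 (Mmp8) at an unadjusted p under 0.05. Their mean level was 7.42, 7.23, 5.33 and 5.62 in KO replicates 1 to 4 and 5.00, 5.39, 6.03, 5.38 and 5.18 in WT replicates 1 to 5. It was thus highest in KO replicates 1 and 2, followed by WT replicate 3, the arrays high in Ccr1, Ccr2 and Ccr7. Cxcr2, the neutrophil receptor, was instead highest in KO replicate 4 (8.75), followed by WT replicate 3 (8.63). The monocyte, macrophage and dendritic cell list was high in KO replicates 1 (7.13) and 2 (7.07) and WT replicates 4 (7.07) and 3 (6.99). Ccl6 shared the high values in KO replicates 1 and 2 but was as high in WT replicate 4 (7.00) as in WT replicate 3 (7.02). Of the 11, Lcn2, Mmp8, Mmp9, Retnlg, Cd177 and Ly6g were below background in the mean over all arrays. Ppbp, a platelet chemokine named outside the rule, was also highest in KO replicates 1 and 2, at 9.00 and 7.22. The part of these genes in the members' values was not tested.

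Immediate early genes, which cells switch on within minutes of a stimulus, had 20 of 21 measured, 19 with a higher mean in KO (median difference 0.52) and 6 at an unadjusted p under 0.05. The largest differences among those were 1.58 for Klf2, 1.18 for Klf6 and 0.93 for Ier2. The mean level was 10.50 and 10.38 in WT replicates 2 and 3, against 11.46 to 12.04 in the other 7 arrays. Cxcl2 was lowest in those same 2 WT arrays, and without them its difference was 0.98 (limma p 0.0668), that of Ccl2 0.36 (limma p 0.165) and that of Cxcl10 1.17 (limma p 0.0774). In the same comparison other differences were larger, with 0.39 for Cxcr2 (limma p 0.00162), 0.58 for Cxcl9 (limma p 0.0218) and 0.57 for Ccl17 (limma p 0.0163). Cxcr2, Cxcl9 and Ccl17 had their highest WT values in the 2 arrays left out. A difference must shrink where those arrays are low and grow where they are high, so these shifts are no separate result. The part of the immediate early genes in the members' values was not tested.

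Of 22 NF-kappaB targets and feedback genes, 21 were measured, 17 with a higher and 4 with a lower mean in KO (median difference 0.23). At an unadjusted p under 0.05 there were 2, Nfkbia and Il1b. The mean level of the list was 8.22 to 8.47 in KO and 8.31, 7.80, 7.72, 8.19 and 8.11 in WT replicates 1 to 5. It was lowest in WT replicates 2 and 3, the arrays low in immediate early genes, and WT replicate 1 lay inside the KO range. Nfkbia, the inhibitor that NF-kappaB itself induces, read 13.52, 13.81, 13.72 and 13.47 in KO replicates 1 to 4. The WT arrays read 13.40, 12.52, 12.47, 12.70 and 12.85. WT replicate 1 lay nearest the KO arrays, as it did for Cxcl10. Of 26 interferon response genes 24 were measured, 15 with a higher mean in KO (median difference 0.03, as over all genes) and 2 at an unadjusted p under 0.05, Irf1 (0.34) and Isg15 (0.33). Their mean level was 8.46 to 8.97 in KO and 8.49 to 8.75 in WT. KO replicates 2 and 3 lay above and KO replicate 1 below the WT range, and KO replicate 4 lay inside it.

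**Figure D5:**
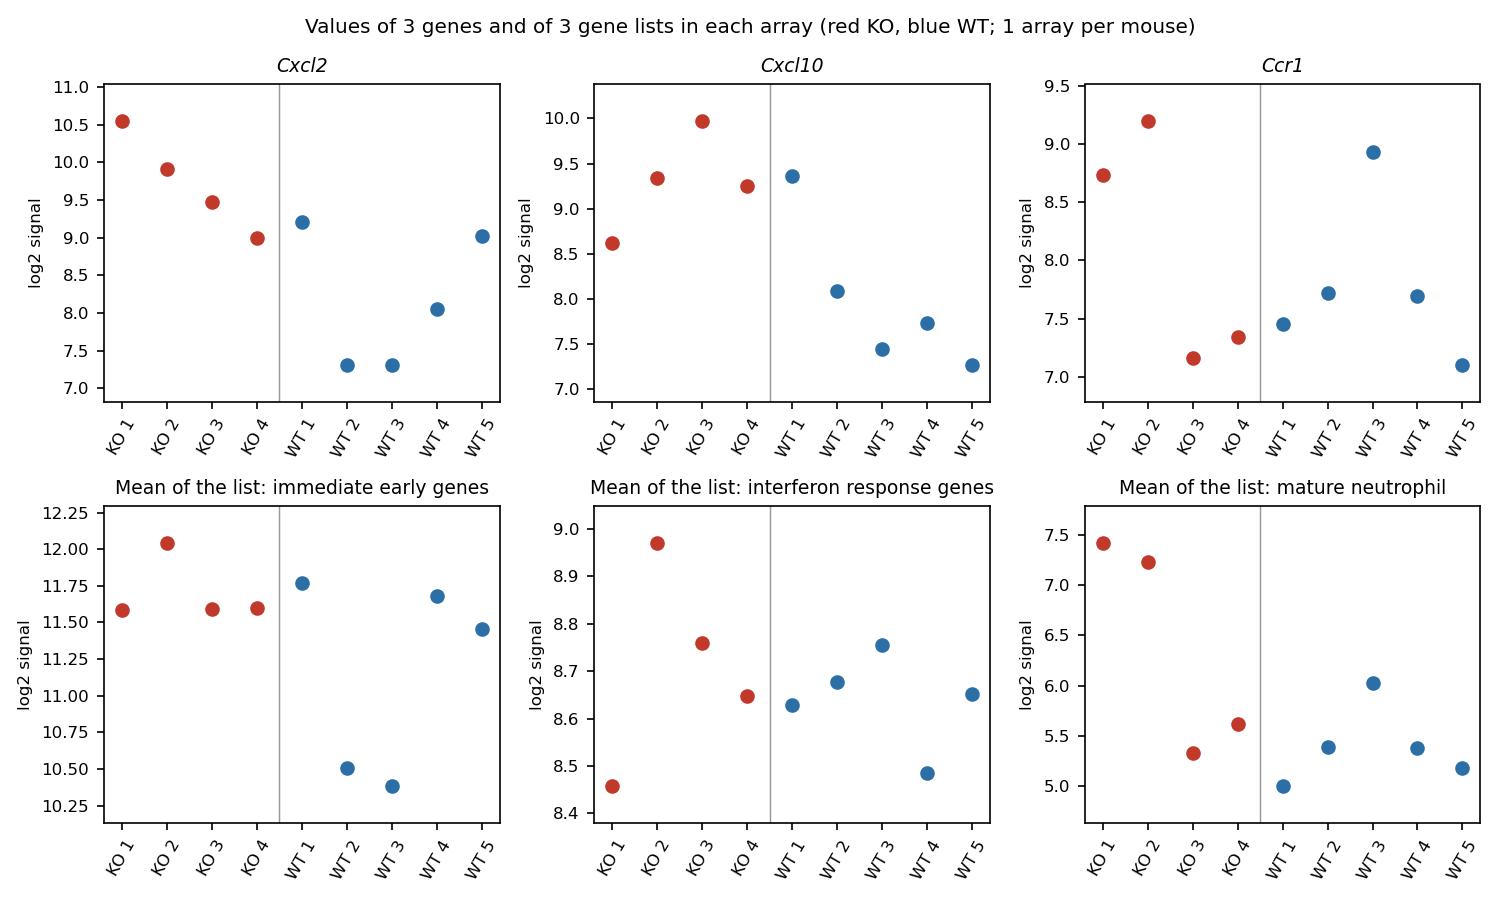
Values in each of the 4 KO (red) and 5 WT (blue) arrays (log2, vertical axes) for 3 chemokine or receptor genes and for the mean of 3 gene lists. Ccr1 and the mature neutrophil list share their 3 highest arrays, and Cxcl2 and the immediate early list share their 2 lowest, WT replicates 2 and 3.

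Downstream of the receptors, 35 of 38 signalling genes (G proteins, arrestins, kinases and the like) were measured and 34 were above background. Of the 35, 16 had a higher and 18 a lower mean in KO, with 0 at an unadjusted limma p under 0.05 and a median difference of -0.02. Of 9 chemokine genes outside the naming rule 8 were measured, 7 with a higher mean in KO and 0 at an unadjusted limma p under 0.05. Pf4, a platelet chemokine, read 15.19 to 15.56 in KO and 10.42 to 15.83 in WT, where WT replicate 5 held the lowest value. Ppbp differed by 1.03, Cx3cl1 by 0.10, its receptor Cx3cr1 by 0.28, Cmklr1 by -0.01 and Mif by 0.44. KO and WT arrays overlapped for each of them.

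Markers of other cell types were read in the same arrays. Monocyte, macrophage and dendritic cell genes had 15 measured, 10 with a higher mean in KO and 2 at an unadjusted p under 0.05, Ly6c2 (1.51) and Cd209a (0.40). Cd209a was below background in the mean over all arrays, while its KO mean (5.54) was above the mean KO background (5.42). T and NK cell genes had 10 measured, of which 7 were below background, Cd3d, Cd3e, Cd4, Cd8a, Ncr1, Gzma and Prf1, and 0 were at p under 0.05. B and plasma cell genes had 10 measured, 8 higher in KO and 5 at p under 0.05, among them Ebf1 (0.48) and Cd79b (0.46). The smallest p of that list was that of Igll1, at 2.9e-05 (limma adjusted p 0.438), with groups that did not overlap (5.17 to 5.50 in KO and 4.49 to 4.74 in WT) and means below background. All 8 mast cell and basophil genes had a higher mean in KO, with 3 at p under 0.05, Fcer1a (1.21), Tpsb2 (0.82) and Cma1 (0.82). All 6 megakaryocyte and platelet genes measured were higher in KO, with Gp9 (0.43) at p under 0.05. Erythroid genes had 7 measured and 0 at p under 0.05. WT replicate 5 had the lowest mean level of these 3 lists. Mast cell and basophil genes read 7.70 there, 8.68 to 9.44 in other WT arrays and 9.17 to 9.62 in KO. Megakaryocyte and platelet genes read 7.49, 8.97 to 9.58 and 9.32 to 9.66. Erythroid genes read 6.25, 8.63 to 9.67 and 8.40 to 9.47. Stromal and endothelial genes had 12 measured, of which 7 were below background. Of the 12 stem and progenitor genes 8 had a lower mean in KO, with Hlf (-0.65) at p under 0.05. Their part in the members' values was not tested.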

How the data were processed

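The deposited table holds 72688 probesets by 9 arrays as log2 signals normalized by the authors, with Partek 6.6 per the submitters' processing notes. How they were normalized and background-corrected, and in which log base, is not given in the sources used here; every fold rests on the log2 reading. Values carry 2 decimals. At least 5 of 9 arrays held an identical value for 9 members, 7 of them below background. Probesets were named from the platform annotation, with 827 symbols updated through Entrez identifiers, and 30142 genes had a probeset with 1 symbol.

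The KO against WT test used limma 3.58.1 (lmFit, then eBayes, under R 4.3.3) with Benjamini-Hochberg adjustment over all genes, and single values had an exact two-sided permutation over all splits of the arrays. The code was tested on simulated data. Replicates are separate mice per the labels, no batch is named, and the number of arrays limits the precision. Members and the 14 gene lists were chosen with earlier results of these data known. Members named are those above background, those at an unadjusted p under 0.05, the 3 ligands and 3 receptors with the largest difference in each direction, Cxcr4 and Cxcl12; values of other members were added after they were seen. Of other lists, members at p under 0.05 are named, at most 3 per direction. Alternatives covered scaling, a filter on dim genes, other background levels, a replicate block and arrays left out.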

Additional observations from a re-analysis of the deposited data

Results flagged for a closer look

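Single arrays stood apart from the others of their group, by Dixon's test at its 95% level, in 10 of 70 groups of named members (14.3%). The share over all genes was not computed. The nominal rate of about 1 in 20 need not hold for values rounded to 2 decimals with ties, so no excess is read from this count. In KO replicate 1 Ccl2 read 8.75, against 8.01 to 8.09 in the other KO arrays. In WT replicate 2 Ccl4 read 6.59, against 7.06 to 7.16. In WT replicate 1 Xcl1 read 7.18, against 6.01 to 6.26, and in WT replicate 4 Ccl25 read 7.64, against 7.36 in all other WT arrays. Cxcl16 read 5.66 in KO replicate 2, against 5.59 in the others, and 5.85 in WT replicate 5, against 5.56 to 5.59. Cxcl17 read 5.29 in KO replicate 4, against 5.32 in the others, and 5.56 in WT replicate 5, against 5.23 to 5.32. Below background, Xcr1 read 4.86 in WT replicate 3, against 4.14 to 4.30, and Ccr3 read 4.70 in KO replicate 2, against 4.83 to 4.84. In 3 of these groups the other arrays held 1 identical value.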

How the results depend on the processing

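No alternative called a member, and the causes of the changes below were not tested. Same-numbered KO and WT arrays deviated with correlations of -0.18, 0.15, -0.01 and 0.27. So few values cannot decide whether same-numbered mice were handled together, and the labels name no batch. With the replicate block, over replicates 1 to 4, 0 members were called and 4 were at an unadjusted p under 0.05. These were Ccl2 (0.53, limma p 0.00168), Cxcl2 (1.77, limma p 0.00364), Ccl9 (0.45, limma p 0.0127) and Ccl17 (0.23, limma p 0.014). Cxcl10 differed by 1.14 there (limma p 0.108). Leaving out 1 array gave 2 to 8 members at that p. Without KO replicates 1 and 2, chosen after the data were seen, there was 1 and 27 members were higher in KO, with median differences of 0.009 for ligands and -0.037 for receptors. Centred arrays gave receptors a median of -0.027. With dim genes left out, fewer members were tested, 20 were higher in KO, 3 were at p under 0.05, and the medians were 0.26 and 0.13. Against percentile 99, 5 receptors were above background, and against the neg control probesets 1 ligand and 1 receptor. Differences changed sign under quantile normalization for Ccl11 (0.0033), with centred arrays for Ccl19 (-0.0435) and Cxcr3 (-0.037), and with the block for Cxcl16 (0.03), Cxcl17 (0.015) and Cxcr1 (-0.0175). Without KO replicate 1 and WT replicate 5 they did for Cxcl16 (0.0358), Cxcl17 (0.0125), Ccl19 (-0.0225) and Ccr1 (-0.0475). Without WT replicates 2 and 3 they did for Ccl19 (-0.0158), Cxcr3 (-0.1133), Xcr1 (0.0075), Ccr3 (0.01) and Ccr8 (0.0183). Without KO replicates 1 and 2 they did for Ccl19 (-0.204), Ccl19-ps1 (-0.018), Cxcr4 (0.03), Ccr1 (-0.528), Ccr2 (-0.126) and Ccr7 (-0.046). Leaving out 1 array at a time, differences ran from -0.0947 to 0.0487 for Ccl11, -0.0773 to 0.076 for Ccl19, -0.1953 to 0.0547 for Ccl26, -0.0313 to 0.6487 for Ccr1, -0.1025 to 0.0325 for Ccr10, -0.14 to 0.0075 for Ccr8, -0.0425 to 0.03 for Cxcl16, -0.0675 to 0.015 for Cxcl17, -0.116 to 0.224 for Cxcr1, -0.05 to 0.085 for Cxcr3, -0.1725 to 0.0675 for Cxcr4, -0.1475 to 0.145 for Xcl1 and -0.165 to 0.015 for Xcr1. None of the differences that changed sign reached an unadjusted p under 0.05. The median SE of a member's difference was 0.11, and signals near background limit the members named there.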
